A study of Mus musculus with 27 samples.

Results

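The 44 genes described here encode enzymes that add or remove acetyl groups on histones, a pair of proteins that read the mark, and the catalytic and core subunits of the machines that slide or evict nucleosomes. They were taken as a set of named genes and matched by GENCODE M21 symbol, which found all 44 among the 43346 genes of the table. All 44 passed the filter on low counts, as did 14482 genes in all. RNA was sequenced from hepatocytes, the main parenchymal cells of the liver, which had been isolated from livers of female mice at 12 weeks of age. The mice came from 9 inbred strains with 3 biological replicates each, 27 libraries in total: 6 laboratory strains (A/J, NZO/HlLtJ, 129S1/SvImJ, NOD/ShiLtJ, C57BL/6J and DBA/2J) and 3 wild-derived ones (PWK/PhJ, WSB/EiJ and CAST/EiJ). No treatment or engineered allele is given for any strain. The same mice also gave maps of histone modifications and DNA methylation, which the study set out to relate to genetic variation and expression; those maps are not analysed here.

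Histone acetyltransferases transfer an acetyl group from acetyl-CoA to lysines of histone tails, which loosens the contact between histones and DNA and creates a binding site for bromodomains. Zinc-dependent histone deacetylases (HDACs) and NAD-dependent sirtuins remove acetyl groups, and several sirtuins do so on mitochondrial and cytosolic enzymes rather than on histones. Remodelers of the SWI/SNF, ISWI, CHD and INO80 classes use ATP to move, space or replace nucleosomes. In hepatocytes these systems act with nuclear receptors and lineage factors at the genes of metabolism, and mitochondrial sirtuins act on enzymes of fat oxidation and nitrogen disposal.

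Library totals ran from 17015956 to 35078511 estimated counts, so that 1 count was worth between 0.0253 and 0.0516 CPM (counts scaled to the size of the library). The summed level of 10 hepatocyte markers ran from 124079 to 375621 CPM and was highest in A/J and WSB/EiJ. The libraries also held RNA of other liver cells: 12 endothelial markers summed to between 65.9 and 769 CPM and 12 Kupffer cell (liver macrophage) markers to between 39.1 and 459 CPM, with all of these genes detected. PWK/PhJ replicate 1 had the highest sum of both lists. In bulk samples, fewer cells of a type and less RNA per cell cannot be told apart. The labels call the replicates biological, without naming the animal behind each library; if some shared an animal, the p-values would measure technical spread only.

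Most of the 44 genes varied little among the strains. The strain effect was called for 23 of them, or 52.3%, in edgeR's quasi-likelihood test of any difference among the 9 strains (Benjamini-Hochberg adjusted p under 0.05 over all genes), against 74.2% of all genes tested. Among the 3391 tested genes whose mean level lay between the lower and upper quartile of the 44 genes, 73% were called. The median range between the highest and lowest strain mean was 0.52 on the log2 scale (log2 CPM with a prior count of 2), against 1.16 for all genes and 0.75 for those of similar level. The replicates of a strain spread less as well, with a median SD of 0.19 in log2 units against 0.28 for all genes and 0.21 at similar level. In 35 of the 44 genes the strain range was below the median of the tested genes within 0.5 log2 units of their own mean level. A called range of at least 2-fold was found in Chd3, Sirt5, Hdac1, Hdac7 and Hdac9, that is 11.4% of the set, against 49.2% of all genes and 28.7% of those of similar level; the size of the Hdac9 range depends on the prior count. With the means of the endothelial and Kupffer cell marker lists as covariates, Chd3, Sirt5 and Hdac1 kept their strain call. Hdac7 (adjusted p = 0.304 in edgeR) and Hdac9 (0.0741) lost theirs. In that fit the Hdac7 differences of PWK/PhJ and NZO/HlLtJ from the mean of the other strains also lost their calls. Those of Hdac9 in the same strains kept theirs, and that of Hdac9 in CAST/EiJ did not. The number called was 17 to 25 when 1 library was left out (69.7% to 75.6% of all genes tested in those fits) and 21 without PWK/PhJ replicate 1 (73.1%). Without a filter on low counts it was 14, against 46.4% of the 23822 genes then tested and 70.8% of the 14482. Without the filter Kat2a, Kat5, Kat6a, Hdac6, Sirt2, Sirt6, Sirt7, Brd3 and Smarcc2 were not called.

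**Figure D1:**
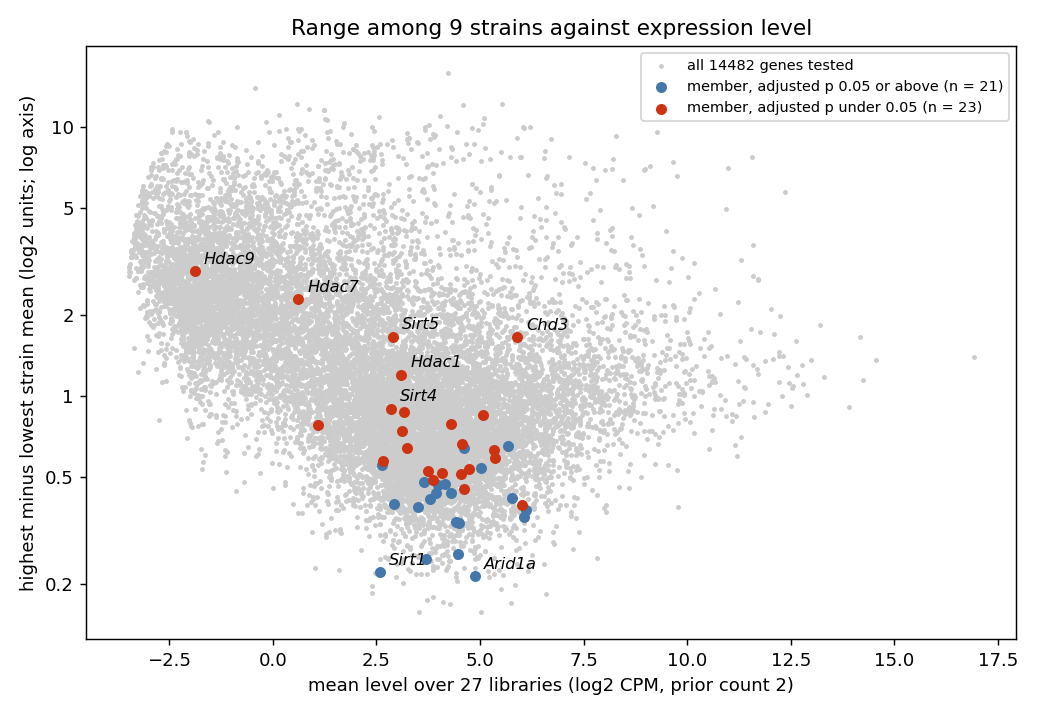
Each point is a tested gene. The horizontal axis gives its mean log2 CPM over 27 libraries and the vertical axis, which is logarithmic, its highest minus lowest strain mean in log2 units. The histone acetylation and remodeling genes are red (adjusted p under 0.05) or blue (not). They lie mostly in the lower part of the grey cloud of 14482 genes, with a median range of 0.52. Of the 44 genes, 35 lie below the median range of genes of similar level. Chd3, Sirt5, Hdac1, Hdac7 and Hdac9 lie above 1.

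The acetyltransferases differed little among the strains. The strain effect was called for 4 of 9 (Kat2a, Kat5, Kat6a and Kat6b), against 74.2% of all genes tested, and none of the 9 had a strain range above 0.87 in log2 units. Per kilobase of the longest transcript, Kat2b, the PCAF enzyme of the SAGA-type complexes, gave 33.5% ± 3.59 (SD, n = 27) of the summed level of the 9. It had its lowest mean in WSB/EiJ, 44.2 ± 3.85 CPM, and its highest in 129S1/SvImJ, 69.7 ± 10.8 CPM (n = 3 each, SD), and the strain effect had an adjusted p of 0.0901 in edgeR, and of 0.029 with the marker covariates. The general coactivators Ep300 and Crebbp, which bind many transcription factors, ranged over 0.34 and 0.44 in log2 units, with adjusted p of 0.574 and 0.0952. Kat7 and Kat8, the catalytic subunits of the HBO1 and MSL or NSL complexes, ranged over 0.25 and 0.40, with adjusted p of 0.812 and 0.484.

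Kat2a, the GCN5 enzyme of SAGA, was low in CAST/EiJ, at 10.5, 9.88 and 10.6 CPM. The other 24 libraries lay between 11.7 and 16.4 CPM, so CAST/EiJ did not overlap with any other library. The log2 difference from the mean of the other 8 strains was -0.41 ± 0.09 (SE; edgeR adjusted p = 0.000473). Separation of 1 strain from all 24 other libraries was found in 4 of the 44 genes (9.09%) and in 24% of all genes tested. Kat6b (MORF), a MYST-family enzyme that acetylates histone H3, was measured at 11.3, 10 and 14.4 CPM in NZO/HlLtJ and at 6.67, 5.52 and 7.11 CPM in A/J. In between were CAST/EiJ (10.3, 10.4 and 10.4 CPM), WSB/EiJ (10.4, 8.31 and 10.6 CPM), PWK/PhJ (11.3, 10.3 and 7.30 CPM) and DBA/2J (10.6, 8.08 and 9.53 CPM). Lower still were 129S1/SvImJ (9.58, 8.44 and 8.61 CPM), C57BL/6J (7.42, 7.39 and 9.09 CPM) and NOD/ShiLtJ (8.54, 6.58 and 7.49 CPM). NZO/HlLtJ and A/J did not overlap with each other, while both overlapped with other strains. Relative to the mean of the other strains, Kat6b was lower in A/J by a log2 difference of -0.54 ± 0.14 and higher in NZO/HlLtJ by 0.46 ± 0.12 (SE; edgeR adjusted p 0.00479 and 0.00676; strain effect 0.00296). These differences lost their call without A/J replicate 2 (0.0549) and without NZO/HlLtJ replicate 3 (0.125), and that of A/J also with the means of the endothelial and Kupffer cell lists as covariates (0.0819).

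Kat5 (TIP60), the catalytic subunit of the NuA4-type complex, ran between 5.05 ± 0.57 CPM in WSB/EiJ and 7.53 ± 0.61 CPM in NZO/HlLtJ (n = 3 each, SD; adjusted p in edgeR 0.0142). Its estimated counts were fractional in all 27 libraries and it overlaps Rnaseh2c on the opposite strand, so its level is uncertain. Kat6a (MOZ), the relative of Kat6b, had its lowest mean in CAST/EiJ, 12.2 ± 2.27 CPM, and its highest in C57BL/6J, 17 ± 2.23 CPM (n = 3 each, SD; adjusted p in edgeR 0.0356). This call was lost in 12 of the 27 fits that each left out 1 library, with the largest adjusted p (0.0692) without C57BL/6J replicate 1.

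Among the class I deacetylases, the nuclear enzymes of the Sin3, NuRD, CoREST and NCoR complexes, Hdac1 differed most among the strains. The PWK/PhJ libraries had 15.1, 13.2 and 12.0 CPM, above all 24 others. C57BL/6J came next with 11.5, 10.3 and 10.9 CPM. The NZO/HlLtJ libraries had 9.81, 9.90 and 7.95 CPM, and those of NOD/ShiLtJ 9.09, 7.76 and 10.8 CPM. This middle group overlapped with DBA/2J (7.35, 7.78 and 9.95 CPM), CAST/EiJ (8.36, 6.98 and 7.99 CPM) and 129S1/SvImJ (8.40, 6.98 and 7.04 CPM). A/J had 6.67, 7.25 and 6.83 CPM and WSB/EiJ 5.02, 7.46 and 5.16 CPM, the lowest mean. Against the mean of the other 8 strains Hdac1 was higher in PWK/PhJ by a log2 difference of 0.73 ± 0.11 and lower in WSB/EiJ by -0.61 ± 0.13 (SE; edgeR adjusted p 1.72e-05 and 0.00117; strain effect 3.32e-05). Both calls held in each of the 27 fits that left out 1 library. A smaller difference was called for C57BL/6J (0.39 ± 0.12, adjusted p = 0.0211 in edgeR), which was lost without any 1 of its own libraries, at up to 0.0995, with the marker covariates (0.185) and without the filter on low counts (0.0565). The estimated counts of Hdac1 were not whole in any library, and the part of this in its level was not tested.

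Hdac2, the partner of Hdac1 in the same complexes, ran between 7.44 ± 0.44 CPM in WSB/EiJ and 11.7 ± 1.54 CPM in NOD/ShiLtJ (n = 3 each, SD; adjusted p in edgeR 0.0314). The call was lost in 6 fits that left out 1 library: each of the 3 WSB/EiJ libraries, NOD/ShiLtJ replicate 2 and NZO/HlLtJ replicates 1 and 2, at up to 0.0691. Hdac3, the enzyme of the NCoR and SMRT corepressors that holds back lipid synthesis genes in liver, ranged over 0.34 in log2 units between 19.2 ± 2.09 CPM in A/J and 24.3 ± 2.1 CPM in NOD/ShiLtJ (n = 3 each, SD), with an adjusted p of 0.325 in edgeR. Per kilobase and within each library, the ratio of Hdac1 to Hdac2 was 2.50 ± 0.667 in PWK/PhJ and 2.07 ± 0.201 in C57BL/6J, and had means between 1.18 and 1.64 in the other strains (n = 3 each, SD). The 3 PWK/PhJ libraries, from 2.07 to 3.27, overlapped with C57BL/6J, from 1.95 to 2.30, and lay above the libraries of every other strain, of which DBA/2J reached 2.06.

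The class IIa deacetylases shuttle between cytoplasm and nucleus and recruit corepressors to MEF2 and FOXO factors. Hdac7 and Hdac9 had the largest strain ranges of the whole set and also its lowest mean levels. Among tested genes within 0.5 log2 units of their own mean level, their ranges were at percentiles 66.7 and 66.2. The median ranges of those genes were 1.78 and 2.45 in log2 units. Hdac7, which is known for its role in endothelial cells, had 7.99 CPM in PWK/PhJ replicate 1 and 2.61 and 2.72 CPM in the other PWK/PhJ libraries. It had 2.32, 2.05 and 3.07 CPM in C57BL/6J. The NZO/HlLtJ libraries had 0.688, 0.531 and 1.06 CPM. The remaining strains spread widely and overlapped: 129S1/SvImJ had 0.775, 0.916 and 1.96 CPM, A/J 1.05, 1.17 and 2.33 CPM, and DBA/2J 2.11, 1.46 and 0.701 CPM. NOD/ShiLtJ had 0.876, 2.04 and 0.767 CPM, WSB/EiJ 1.48, 1.45 and 1.57 CPM, and CAST/EiJ 0.857, 1.57 and 1.39 CPM. Hdac7 was higher in PWK/PhJ than in the mean of the other strains by a log2 difference of 1.70 ± 0.31 and lower in NZO/HlLtJ by -1.16 ± 0.40 (SE; edgeR adjusted p 0.000109 and 0.0345; strain effect 0.00174). Without PWK/PhJ replicate 1 the PWK/PhJ difference was 0.97 (adjusted p = 0.0415 in edgeR). The NZO/HlLtJ call was lost without NZO/HlLtJ replicate 1 (0.142) or 2 (0.19). Hdac7 overlaps Slc48a1 on the opposite strand.

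The libraries at the high and low ends of Hdac7 were also high and low in RNA of endothelial markers, a list that does not hold Hdac7. PWK/PhJ replicate 1, the library with the most Hdac7, had 769 CPM of summed endothelial markers. The other PWK/PhJ libraries had 236 and 268 CPM, and C57BL/6J replicate 4, with 3.07 CPM of Hdac7, had 305 CPM. The NZO/HlLtJ libraries had 65.9, 74.3 and 108 CPM, among the lowest. Within DBA/2J, replicate 4 had 0.701 CPM of Hdac7 and 75.6 CPM of endothelial markers, while replicate 2 had 2.11 and 203 CPM. Other libraries did not follow this order: WSB/EiJ replicate 4 had the most Hdac7 of its strain (1.57 CPM) and the least endothelial RNA (137 CPM), and A/J replicate 2 had 184 CPM of markers with 1.17 CPM of Hdac7. Kupffer cell markers summed to 459 CPM in PWK/PhJ replicate 1 and 158 CPM in each of the other PWK/PhJ libraries, 323, 294 and 235 CPM in C57BL/6J and 91.5, 124 and 44.5 CPM in NZO/HlLtJ. With the means of the endothelial and Kupffer cell lists as covariates, the strain effect on Hdac7 had an adjusted p of 0.304 in edgeR. The log2 differences were then 0.13 in PWK/PhJ and -0.13 in NZO/HlLtJ. The endothelial marker sums themselves differed between these strains, so RNA of these cells and strain cannot be told apart. The part of such RNA in the level of Hdac7 was not tested.

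Hdac9, the other gene of low level, was near the detection limit, so its counts are given and no fold: its strain range of 2.91 in log2 units rests on libraries with 0 to 2 counts and was 4.25 with a prior count of 0.5. PWK/PhJ had 27, 16 and 14 counts, A/J 9, 13 and 12, C57BL/6J 11, 14 and 5, and DBA/2J 8, 14 and 5. The NZO/HlLtJ libraries had 0, 2 and 1 counts and those of CAST/EiJ 4, 0 and 0. 129S1/SvImJ had 1, 4 and 8 counts, NOD/ShiLtJ 3, 5 and 10 and WSB/EiJ 8, 8 and 0. These 3 strains overlapped with the low end and lay below all PWK/PhJ libraries. The strain effect had an adjusted p of 0.00462 in edgeR, and of 0.0741 with the marker covariates. In that fit the differences of PWK/PhJ (0.0495) and NZO/HlLtJ (0.0428) from the mean of the other strains kept their calls. They were not smaller than without the covariates. The difference of CAST/EiJ, with an adjusted p of 0.0478 without the covariates, was smaller with them and lost its call (0.308). The difference of PWK/PhJ from the mean of the other strains (adjusted p = 0.00483) was lost without PWK/PhJ replicate 1 (0.0845), the library with the most endothelial RNA. The difference of NZO/HlLtJ (adjusted p = 0.0186 in edgeR) was lost without any 1 of its own libraries or CAST/EiJ replicate 1, at up to 1.

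**Figure D2:**
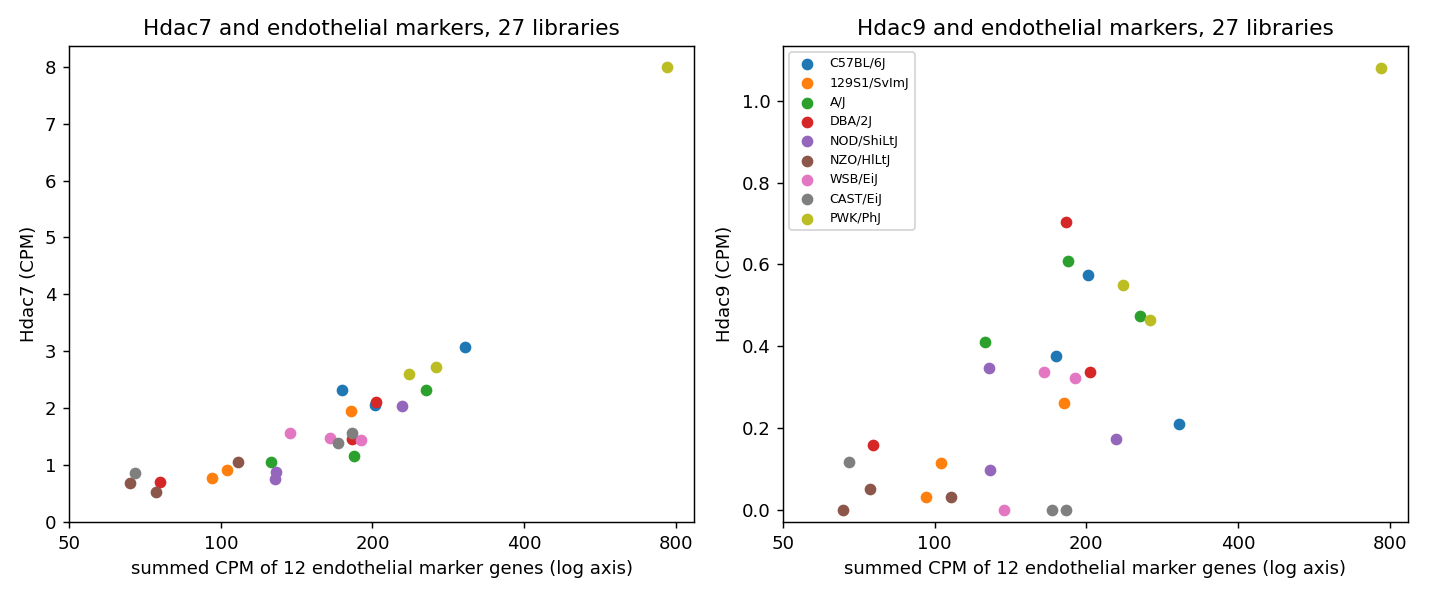
Points are the 27 libraries, coloured by strain. The horizontal axis, which is logarithmic, gives the summed CPM of 12 endothelial marker genes, and the vertical axes give Hdac7 (left) and Hdac9 (right) in CPM. PWK/PhJ replicate 1, at 769 CPM of endothelial markers, has the most Hdac7 (7.99 CPM) and Hdac9 (1.08 CPM). The NZO/HlLtJ libraries, at 65.9 to 108 CPM, lie at the low end of both. Hdac9 was also at 0 in CAST/EiJ replicates 4 and 5 (182 and 171 CPM of markers) and WSB/EiJ replicate 4 (137 CPM).

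Hdac7 and Hdac9 also had the fewest CG dinucleotides of the 36 genes of the set with an entry among the RefSeq promoters (GRCm38.p6), which take 250 bases before a transcript start and 50 after it. Their 300-base windows are shown for that reason, 5' to 3' on the strand of the gene, with each CG in capitals; CG reads the same on both strands and does not overlap with itself. Hdac7 at chr15:97844453-97844752 on the minus strand held 6 CG and Hdac9 at chr12:34917046-34917345 on the minus strand held 0. The table lists 4 starts for Hdac7 and 2 for Hdac9, and the one at the 5' end of the annotated gene was used.
Hdac7: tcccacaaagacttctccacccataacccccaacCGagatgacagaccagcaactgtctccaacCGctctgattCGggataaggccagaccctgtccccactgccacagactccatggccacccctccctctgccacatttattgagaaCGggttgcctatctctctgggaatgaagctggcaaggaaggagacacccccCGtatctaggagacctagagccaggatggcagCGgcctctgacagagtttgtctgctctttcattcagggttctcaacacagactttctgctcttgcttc
Hdac9: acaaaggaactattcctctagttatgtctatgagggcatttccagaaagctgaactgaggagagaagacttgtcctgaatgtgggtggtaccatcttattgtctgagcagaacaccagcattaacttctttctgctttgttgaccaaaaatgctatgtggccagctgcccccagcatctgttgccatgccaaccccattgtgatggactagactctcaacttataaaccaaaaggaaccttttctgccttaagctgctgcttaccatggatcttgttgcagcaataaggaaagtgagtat
The 36 genes had a median of 22.5 CG, against 20 over 10486 tested genes with an entry and 11 over all 20595 entries. At least 1 CG was present in 97.2% of the windows of the set, 99.2% of those of tested genes and 94.8% of all. No promoter measurement enters these data, so the windows describe sequence only. The windows of Kat6a, Hdac1, Hdac3, Hdac10, Arid2, Chd1, Chd2 and Chd3 are not used here.

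The other class IIa genes differed less. Hdac4 had its lowest mean in A/J, 5.41 ± 0.511 CPM, and its highest in CAST/EiJ, 7.99 ± 1.05 CPM; for Hdac5 these were A/J, 24.1 ± 1.68 CPM, and C57BL/6J, 36.0 ± 11.1 CPM (n = 3 each, SD), with adjusted p of the strain effect of 0.106 and 0.142 in edgeR. As single contrasts, Hdac4 was higher in CAST/EiJ by a log2 difference of 0.43 ± 0.12 and Hdac5 lower in A/J by -0.49 ± 0.14 (SE; edgeR adjusted p 0.00849 and 0.0124). The first was lost without CAST/EiJ replicate 4 (0.117) and the second without A/J replicate 3 (0.0894) or with the marker covariates (0.0642).

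The strain effect was called for each of the 3 deacetylases of classes IIb and IV, against 74.2% of all genes tested. Hdac11, a class IV enzyme best known for removing long fatty acyl groups, gave the largest share of deacetylase RNA: per kilobase, 32.3% ± 4.74 (SD, n = 27) of the summed level of the 10 zinc-dependent genes of the set. It had 44.4, 40.7 and 45.8 CPM in 129S1/SvImJ, 20.9, 22.9 and 29.7 CPM in WSB/EiJ, and 30.9, 24.6 and 20.6 CPM in CAST/EiJ. The 129S1/SvImJ libraries lay above all libraries of WSB/EiJ and CAST/EiJ. Hdac11 was lower in WSB/EiJ than in the mean of the other strains by a log2 difference of -0.53 ± 0.15 (SE; edgeR adjusted p = 0.0102; strain effect 0.00411). That call was lost without WSB/EiJ replicate 2 (0.101) or 3 (0.0695). Hdac6, the cytoplasmic tubulin deacetylase encoded on the X chromosome, ran between 14.0 ± 1.6 CPM in A/J and 20 ± 0.591 CPM in PWK/PhJ (n = 3 each, SD; adjusted p in edgeR 0.00848, and 0.0687 with the marker covariates). Hdac10, a polyamine deacetylase, had its lowest mean in NOD/ShiLtJ, 6.86 ± 0.637 CPM, and its highest in WSB/EiJ, 11.5 ± 0.86 CPM (n = 3 each, SD; adjusted p in edgeR 0.0484). The Hdac10 call was lost in 18 of the 27 fits that left out 1 library, with the largest adjusted p (0.113) without WSB/EiJ replicate 4.

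The strain effect was called for 6 of the 7 sirtuins, against 74.2% of all genes tested. Sirt2, a mainly cytosolic enzyme, and Sirt3, the main deacetylase of mitochondria, made up most of their RNA: per kilobase, 29.8% ± 2.65 and 30% ± 3.74 (SD, n = 27) of the summed level of the family. The largest strain difference was in Sirt5, the mitochondrial enzyme that removes succinyl, malonyl and glutaryl groups and acts on the urea cycle enzyme Cps1. The WSB/EiJ libraries had 13.7, 13.9 and 17.9 CPM of Sirt5 and the CAST/EiJ libraries 12.8, 12.3 and 12.5 CPM. These 6 libraries lay above the other 21, and WSB/EiJ did not overlap with CAST/EiJ. In the other strains, 129S1/SvImJ had 7.97, 7.55 and 7.66 CPM, DBA/2J 6.63, 6.53 and 8.42 CPM, NOD/ShiLtJ 7.63, 7.24 and 6.27 CPM and NZO/HlLtJ 6.80, 7.01 and 6.19 CPM. The lowest were A/J with 5.30, 6.22 and 4.82 CPM, PWK/PhJ with 4.47, 5.12 and 6.64 CPM and C57BL/6J with 4.03, 6.00 and 4.29 CPM, and these 3 strains overlapped.

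Against the mean of the other 8 strains, Sirt5 was higher in WSB/EiJ by a log2 difference of 1.15 ± 0.11 and in CAST/EiJ by 0.84 ± 0.11, and lower in C57BL/6J by -0.72 ± 0.13 (SE; edgeR adjusted p 2.06e-08, 2.15e-06 and 0.000396; strain effect 1.66e-08). These 3 calls held in each of the 27 fits that left out 1 library. PWK/PhJ, the other wild-derived strain beside WSB/EiJ and CAST/EiJ, differed in the opposite direction, by -0.51 ± 0.13 (SE; edgeR adjusted p = 0.00343, and 0.0519 without PWK/PhJ replicate 1). With the marker covariates, that adjusted p was 0.15.

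Sirt4, a mitochondrial lipoamidase and ADP-ribosyltransferase that restrains fat oxidation and glutamate use, had a different strain order. PWK/PhJ had 9.78, 10.7 and 9.06 CPM and NZO/HlLtJ 9.35, 9.92 and 8.69 CPM. Next were DBA/2J with 8.11, 8.84 and 7.56 CPM, 129S1/SvImJ with 8.59, 6.01 and 9.23 CPM, CAST/EiJ with 8.60, 7.43 and 6.34 CPM and WSB/EiJ with 7.04, 7.30 and 7.09 CPM. C57BL/6J had 6.02, 5.63 and 5.59 CPM, NOD/ShiLtJ 6.39, 5.58 and 4.74 CPM and A/J 4.29, 5.33 and 6.28 CPM. The PWK/PhJ and NZO/HlLtJ libraries overlapped with each other and lay above all those of the 3 low strains. Sirt4 was higher in PWK/PhJ by a log2 difference of 0.50 ± 0.12 and lower in A/J by -0.50 ± 0.13 (SE; edgeR adjusted p 0.00159 and 0.00612; strain effect 0.000173). The first held in all 27 fits that left out 1 library and the second was lost without A/J replicate 1 (0.0644).

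Sirt5 and Sirt4 had the smallest p among the genes of the set with a RefSeq promoter entry, and their windows are shown for that reason, with CG in capitals. Each had 1 listed start and 15 CG: Sirt5 at chr13:43365285-43365584 on the plus strand, 39 bases from the annotated start of the gene, and Sirt4 at chr5:115484248-115484547 on the minus strand, 428 bases from it.
Sirt5: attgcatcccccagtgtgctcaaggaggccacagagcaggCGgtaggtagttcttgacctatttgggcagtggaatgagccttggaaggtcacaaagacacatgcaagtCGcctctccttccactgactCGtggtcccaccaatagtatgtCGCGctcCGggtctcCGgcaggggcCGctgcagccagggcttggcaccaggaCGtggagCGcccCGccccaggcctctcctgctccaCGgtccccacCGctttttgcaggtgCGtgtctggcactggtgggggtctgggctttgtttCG
Sirt4: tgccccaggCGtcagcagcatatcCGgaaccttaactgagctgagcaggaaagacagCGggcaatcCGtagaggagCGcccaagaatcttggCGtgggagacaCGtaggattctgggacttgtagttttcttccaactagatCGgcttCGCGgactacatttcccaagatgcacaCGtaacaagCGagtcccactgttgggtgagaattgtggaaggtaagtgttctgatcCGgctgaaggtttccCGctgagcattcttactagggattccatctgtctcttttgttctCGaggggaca
Both counts lay below the lower quartile of the set, 17, and above that of tested genes, 11. The coordinates are of the reference build and the sequence is that of the reference strain, so it shows no difference between strains.

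Sirt3 was measured at 54.9, 47.5 and 59.6 CPM in NZO/HlLtJ and at 54.4, 49.6 and 54.8 CPM in 129S1/SvImJ. NOD/ShiLtJ had 38.6, 42.8 and 44.5 CPM, C57BL/6J 50.7, 34.2 and 33.9 CPM, WSB/EiJ 33.5, 34.3 and 48.8 CPM and A/J 39.2, 39.2 and 33.8 CPM. CAST/EiJ had 38.5, 36.6 and 33.6 CPM, DBA/2J 29.1, 37.7 and 40.3 CPM and PWK/PhJ 33.1, 33.4 and 37.6 CPM. A single C57BL/6J library reached into both high strains, and a single WSB/EiJ library reached NZO/HlLtJ but not 129S1/SvImJ. Sirt3 was higher in NZO/HlLtJ by a log2 difference of 0.46 ± 0.12 and in 129S1/SvImJ by 0.42 ± 0.12 (SE; edgeR adjusted p 0.00548 and 0.0132; strain effect 0.0041). The first was lost without NZO/HlLtJ replicate 3 (0.0577) and the second without 129S1/SvImJ replicate 1 (0.0812) or 3 (0.067). With the marker covariates the adjusted p were 0.112 and 0.0956. Sirt3 overlaps Psmd13 and Ric8a on the opposite strand and had fractional counts in 14 libraries, which leaves its level uncertain.

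Of the nuclear sirtuins, Sirt7, which acts on histone H3 and ribosomal RNA genes, ran between 19.3 ± 1.02 CPM in WSB/EiJ and 27.6 ± 1.41 CPM in DBA/2J (n = 3 each, SD; adjusted p in edgeR 0.00648). Sirt6, a deacetylase of histone H3 linked to DNA repair and to the control of glycolytic genes, had its lowest mean in PWK/PhJ, 1.61 ± 0.276 CPM, and its highest in DBA/2J, 2.84 ± 0.57 CPM (n = 3 each, SD; adjusted p in edgeR 0.0107). Sirt2 ran between 21.6 ± 2.82 CPM in A/J and 31.1 ± 1.26 CPM in CAST/EiJ (n = 3 each, SD; adjusted p in edgeR 0.0407). The Sirt2 call was lost in 16 of the 27 fits that left out 1 library, with the largest adjusted p (0.12) without A/J replicate 3, and Sirt2 overlaps Nfkbib on the opposite strand. Sirt1, the nuclear sirtuin that acts on PGC-1alpha and FOXO factors in the fasting liver, had the largest adjusted p of the set: its libraries ran from 4.37 to 7.85 CPM with a median of 5.97, and its strain means from 5.32 ± 0.894 CPM in WSB/EiJ to 6.25 ± 1.28 CPM in 129S1/SvImJ (n = 3 each, SD). All strains overlapped (adjusted p of the strain effect in edgeR 0.935).

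**Figure D3:**
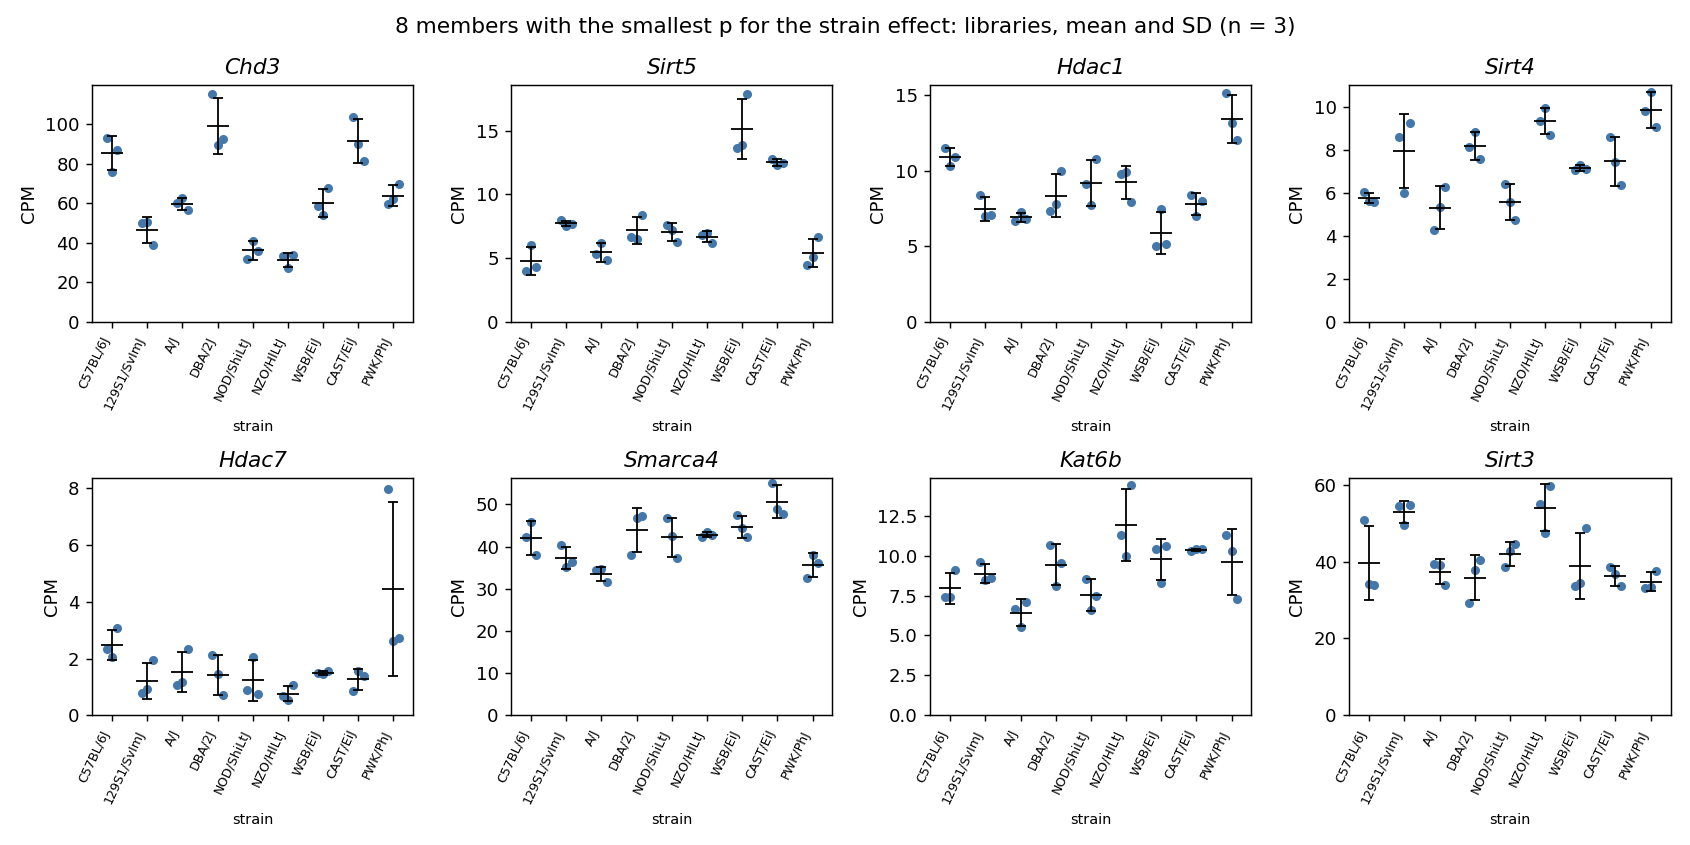
Each panel is one of the 8 genes of the set with the smallest p of the strain effect. Points are libraries, bars the mean and SD of the 3 libraries of a strain, and the vertical axes give CPM from 0. PWK/PhJ is apart from the other strains in Hdac1 (12.0 to 15.1 CPM), WSB/EiJ in Sirt5 (13.7 to 17.9 CPM) and CAST/EiJ in Smarca4 (47.8 to 55.1 CPM); the Hdac7 mean of PWK/PhJ rests on a library at 7.99 CPM.

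The BET proteins carry paired bromodomains that bind acetylated histones. Brd2 had its lowest mean in C57BL/6J, 65.3 ± 17.1 CPM, and its highest in WSB/EiJ, 83.1 ± 2.94 CPM, while Brd3 ran between 20.5 ± 1.38 CPM in CAST/EiJ and 28.1 ± 2.13 CPM in 129S1/SvImJ (n = 3 each, SD), with adjusted p of 0.494 and 0.0369 in edgeR. The Brd3 call was lost in 9 of the 27 fits that left out 1 library, with the largest adjusted p (0.108) without CAST/EiJ replicate 5.

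SWI/SNF complexes open chromatin with either of 2 ATPases, Smarca2 (BRM) or Smarca4 (BRG1). The strain effect was called for 2 of the 8 SWI/SNF genes, Smarca4 and Smarcc2, against 74.2% of all genes tested. Smarca4 had 55.1, 49.0 and 47.8 CPM in CAST/EiJ, above all 24 other libraries. WSB/EiJ had 47.5, 44.4 and 42.3 CPM, DBA/2J 38, 46.8 and 47.3 CPM, NZO/HlLtJ 42.3, 43.6 and 42.8 CPM, NOD/ShiLtJ 46.7, 42.4 and 37.4 CPM and C57BL/6J 42.2, 45.9 and 37.9 CPM. The lowest were 129S1/SvImJ with 40.3, 35.3 and 36.3 CPM, PWK/PhJ with 32.7, 38.1 and 36.1 CPM and A/J with 34.3, 34.7 and 31.7 CPM. The A/J libraries overlapped with PWK/PhJ and lay below all libraries of the other strains. Smarca4 was higher in CAST/EiJ by a log2 difference of 0.34 ± 0.08 and lower in A/J by -0.33 ± 0.09 (SE; edgeR adjusted p 0.00304 and 0.00877; strain effect 0.00262). The first was lost without CAST/EiJ replicate 1 (0.0547) and the second without A/J replicate 3 (0.0785). Smarca2 was highest in WSB/EiJ, at 63.0 ± 2.56 CPM, and lowest in PWK/PhJ, at 47.3 ± 4.81 CPM (n = 3 each, SD; adjusted p in edgeR 0.104). Per kilobase, the ratio of Smarca2 to Smarca4 was lowest in CAST/EiJ, at 1.10 ± 0.187, and highest in A/J, at 1.70 ± 0.0689 (n = 3 each, SD).

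The core and DNA-binding subunits had small ranges. Smarcc2 (BAF170), one of the scaffold pair, had its lowest mean in NOD/ShiLtJ, 59.0 ± 2.67 CPM, and its highest in 129S1/SvImJ, 77.6 ± 7.36 CPM (n = 3 each, SD; adjusted p in edgeR 0.0478). That call was lost in 19 of the 27 fits that left out 1 library, with the largest adjusted p (0.134) without 129S1/SvImJ replicate 1, and was 0.111 with the marker covariates. Its relative Smarcc1 (BAF155) ranged over 0.46 in log2 units and the core subunit Smarcb1 over 0.48, each with an adjusted p of 0.102 in edgeR; that of Smarcc1 was 0.0197 with the marker covariates. The DNA-binding subunits Arid1a, Arid1b and Arid2 ranged over 0.21, 0.47 and 0.41, with adjusted p of 0.919, 0.21 and 0.0833. Arid1a, a tumour suppressor in liver and the subunit that defines the BAF form of the complex, had the smallest strain range of the 44 genes: its libraries ran from 21.8 to 39.1 CPM with a median of 29.6 and all strains overlapped. Smarca5, the ISWI ATPase that spaces nucleosomes, ranged over 0.44 and Ino80, the ATPase that exchanges and evicts H2A.Z nucleosomes, over 0.39, with adjusted p of 0.26 and 0.121 in edgeR; that of Smarca5 was 0.0454 with the marker covariates.

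The clearest strain effect of the set was in the CHD class, in Chd3, an ATPase of the NuRD complex, which joins remodeling to deacetylation by Hdac1 and Hdac2. DBA/2J had 115, 89.2 and 92.7 CPM, CAST/EiJ 104, 89.9 and 81.3 CPM and C57BL/6J 93.0, 75.9 and 87.0 CPM. PWK/PhJ had 59.9, 62.0 and 69.8 CPM, WSB/EiJ 58.5, 54.3 and 67.7 CPM, A/J 60.1, 62.6 and 56.6 CPM and 129S1/SvImJ 50.2, 50.4 and 38.7 CPM. NOD/ShiLtJ had 31.7, 41.2 and 35.6 CPM and NZO/HlLtJ 33.3, 27.4 and 33.6 CPM. The 9 libraries of DBA/2J, CAST/EiJ and C57BL/6J lay above the other 18, and NOD/ShiLtJ and NZO/HlLtJ overlapped at the low end. The range of the strain means was 3.14-fold, from 31.4 ± 3.51 to 99.1 ± 14.2 CPM (n = 3 each, SD), and 94.2% of the variance of its log2 CPM lay between strains. The median of this share over all genes tested was 66.6%. Among 1013 tested genes of similar level, 84.1% were called, and the range of Chd3 was at the percentile 87.4 of theirs.

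Chd3 was called in 6 of the 9 contrasts of 1 strain with the mean of the other 8. The log2 differences were 0.83 ± 0.10 in DBA/2J, 0.70 ± 0.10 in CAST/EiJ and 0.58 ± 0.10 in C57BL/6J, and -1.04 ± 0.12 in NZO/HlLtJ, -0.81 ± 0.12 in NOD/ShiLtJ and -0.40 ± 0.11 in 129S1/SvImJ (SE). The edgeR adjusted p ran from 4.2e-07 in NZO/HlLtJ to 0.0142 in 129S1/SvImJ, and the strain effect had 1.98e-09. The 129S1/SvImJ call was lost without 129S1/SvImJ replicate 3 (0.142), and the other 5 held in each of the 27 fits. The estimated counts of Chd3 were not whole in 11 libraries.

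Chd4, the alternative NuRD ATPase, had a small range: its strain means ran between 56.2 ± 0.964 CPM in PWK/PhJ and 72.3 ± 8.88 CPM in NZO/HlLtJ (n = 3 each, SD), with an adjusted p of 0.573 in edgeR. The ratio of Chd3 to Chd4 per kilobase crossed 1, from 0.402 ± 0.00549 in NZO/HlLtJ to 1.33 ± 0.211 in DBA/2J (n = 3 each, SD). Chd1, which binds trimethylated H3K4 at active genes, had its lowest mean in NOD/ShiLtJ, 18.5 ± 2.81 CPM, and its highest in A/J, 29.1 ± 1.96 CPM (n = 3 each, SD; adjusted p in edgeR 0.0281). It lost its call without PWK/PhJ replicate 1 (0.0505) or 2 (0.0588) or NOD/ShiLtJ replicate 2 (0.057). Chd9, a remodeler that binds PPAR-alpha, ran between 14.9 ± 2.43 CPM in C57BL/6J and 25.8 ± 4.02 CPM in CAST/EiJ (n = 3 each, SD; adjusted p in edgeR 0.0325, and 0.425 with the marker covariates). The Chd9 call was lost in 6 fits that left out 1 library: CAST/EiJ replicate 1, C57BL/6J replicates 2 and 4, A/J replicate 2 and NZO/HlLtJ replicates 1 and 2, at up to 0.0833. Chd2 and Chd8 ranged over 0.64 and 0.26 in log2 units, with adjusted p of 0.0768 and 0.325, and the estimated counts of Chd2 were not whole in any library.

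**Figure D4:**
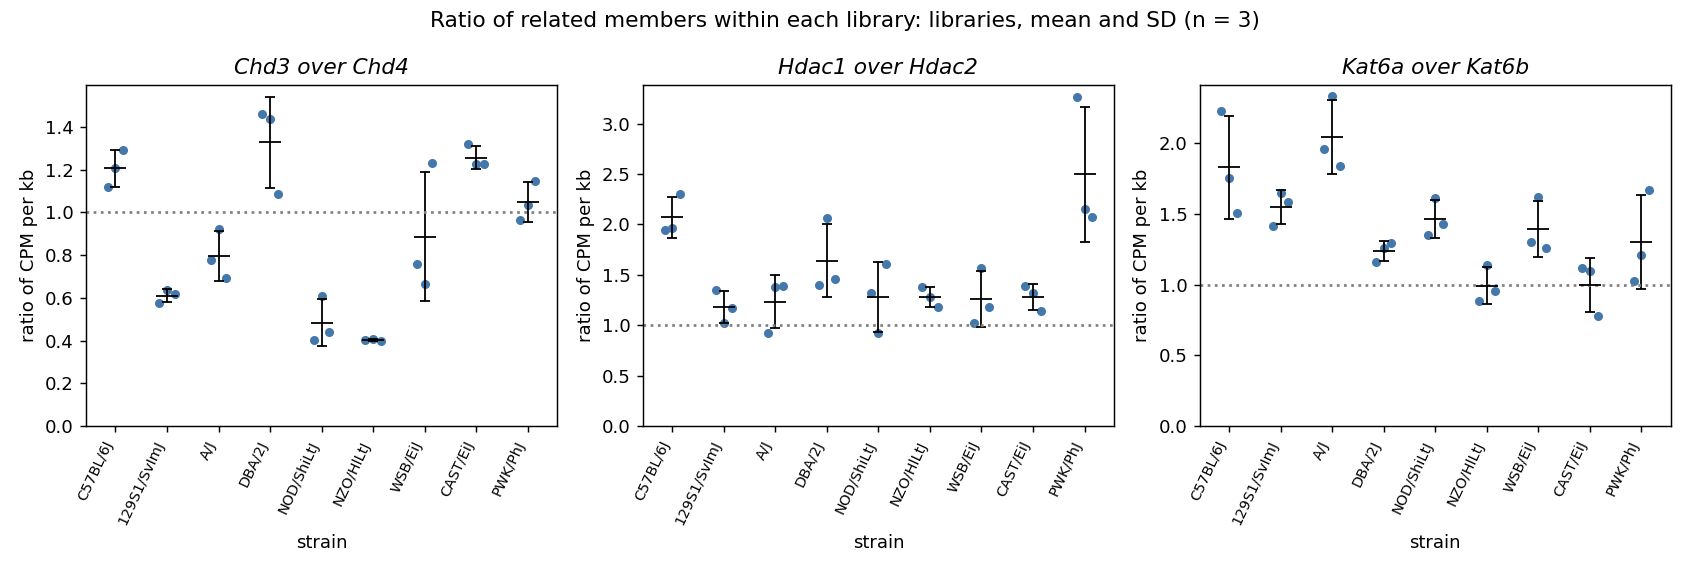
Ratios of CPM per kilobase of related genes within each library, for Chd3 over Chd4, Hdac1 over Hdac2 and Kat6a over Kat6b. Points are libraries, bars the mean and SD of 3 libraries, and the dotted line marks equal levels. Chd3 over Chd4 ran from 0.402 in NZO/HlLtJ to 1.33 in DBA/2J, Hdac1 over Hdac2 was highest in PWK/PhJ (2.50), and Kat6a over Kat6b ran from 0.993 in NZO/HlLtJ to 2.04 in A/J.

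By strain, the 44 genes gave 58 calls in 396 contrasts of 1 strain with the mean of the other 8, which share libraries and are not independent. A call in at least 1 contrast was made for 27 of the 44 (61.4%) and for 79.9% of all genes tested. In CAST/EiJ 10 of the 44 were called, 5 higher (Hdac4, Sirt5, Smarca4, Chd3 and Chd9) and 5 lower (Kat2a, Kat6a, Hdac9, Hdac11 and Brd3), against 20.1% and 17.8% of all genes tested. With the marker covariates Hdac9 (edgeR adjusted p = 0.308) and Chd9 (0.0591) lost their calls in CAST/EiJ. That of Hdac9, at an adjusted p of 0.0478, was also lost in 19 of the 27 fits that left out 1 library, at up to 0.212. In PWK/PhJ 9 were called, 5 higher (Hdac1, Hdac6, Hdac7, Hdac9 and Sirt4) and 4 lower (Sirt5, Sirt7, Smarca4 and Arid2), against 19.4% and 14.8%. With the marker covariates the count in PWK/PhJ was again 9 but not of the same genes: Hdac7 (adjusted p = 0.77 in edgeR), Sirt5 (0.15), Smarca4 (0.689) and Arid2 (0.69) lost their calls. In A/J 9 were called, and 8 of these (18.2% of the set) were lower, against 11.6% of all genes lower and 15.9% higher. The 8 were Kat6b, Hdac1, Hdac5, Hdac6, Sirt2, Sirt4, Sirt5 and Smarca4, which come from 6 of the 10 roles; Sirt6 was higher. A/J was also the strain with the highest sum of hepatocyte markers, at 320676 ± 51566 CPM (SD, n = 3), and the part of this in the lower calls was not tested. A/J held the lowest mean of 11 of the 44 genes, and was the lowest strain for 13.7% of all genes. Without A/J replicate 3 the count in A/J was 2, without A/J replicate 1 it was 5, and with the marker covariates it was 4.

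In NZO/HlLtJ 8 genes were called, 4 of them higher (Kat5, Kat6b, Sirt3 and Sirt4) and 4 lower (Hdac7, Hdac9, Chd2 and Chd3), against 14.8% and 12.9% of all genes. With the marker covariates Kat5 (0.674), Sirt3 (0.112) and Hdac7 (0.811) lost their calls. That of Kat5, at an adjusted p of 0.0481, was also lost in 17 of the 27 fits that left out 1 library, at up to 0.26, and without rounding (0.0517). In WSB/EiJ 7 were called, 3 higher (Crebbp, Hdac10 and Sirt5) and 4 lower (Kat5, Hdac1, Hdac11 and Sirt7), against 15.5% and 9.25%. C57BL/6J had 5 calls, 2 higher (Hdac1 and Chd3) and 3 lower (Sirt4, Sirt5 and Chd9), against 11.6% and 6.5% of all genes. 129S1/SvImJ also had 5, 4 higher (Kat2b, Hdac11, Sirt3 and Smarcc2) and Chd3 lower, against 10.5% and 7.86%; with the marker covariates the 4 higher genes lost their calls (edgeR adjusted p from 0.0956 for Sirt3 to 0.204 for Smarcc2) and Chd3 was the 1 left. DBA/2J had 3, all higher (Sirt6, Sirt7 and Chd3), against 9.5% of all genes higher. Sirt6 and Sirt7 lost their calls in DBA/2J with the GC trend removed (edgeR adjusted p 0.0669 and 0.124) and without the filter (0.144 and 0.163). NOD/ShiLtJ had 2, both lower (Sirt4 and Chd3), against 5.72% of all genes lower. The median of the 44 genes differed little from the average strain in every strain, from -0.07 in PWK/PhJ to 0.08 in 129S1/SvImJ on the log2 scale, and the median of all genes from -0.01 to 0.01. Of the 58 calls, 13 held in each of the 27 fits that left out 1 library: Kat2a in CAST/EiJ, Hdac1 in WSB/EiJ and PWK/PhJ, Hdac7 in PWK/PhJ, Sirt4 in PWK/PhJ, Sirt5 in C57BL/6J, WSB/EiJ and CAST/EiJ, and Chd3 in NZO/HlLtJ, NOD/ShiLtJ, DBA/2J, C57BL/6J and CAST/EiJ. Leaving out 1 library of a strain itself lowered that strain's count to 2 in C57BL/6J (replicate 2 or 4), 1 in 129S1/SvImJ (replicate 1; 2 for the others), 1 in DBA/2J (2 or 3) and 1 in NOD/ShiLtJ (2 or 3). It lowered the count to 3 in NZO/HlLtJ (replicate 1 or 2; 4 for the other), 2 in WSB/EiJ (3; 3 without 2 and 4 without 4), 6 in CAST/EiJ (4 or 5) and 4 in PWK/PhJ (1; 5 without 2). The C57BL/6J count was also 3 without any 1 of 10 libraries of other strains.

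**Figure D5:**
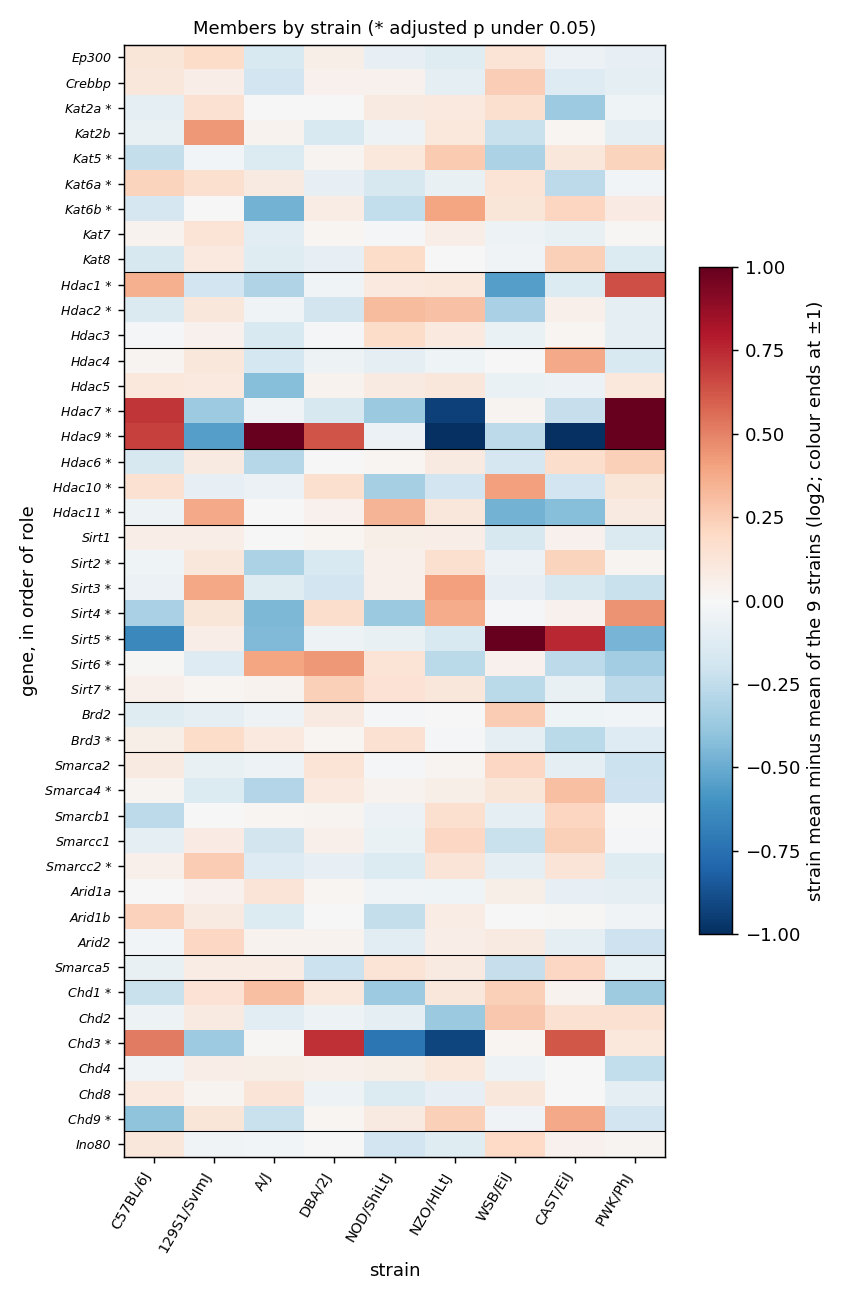
Rows are the 44 genes in order of role, with lines between roles, and columns the 9 strains. Colour gives the strain mean minus the mean of the 9 strains in log2 units and ends at ±1, and a star marks an adjusted p under 0.05. Most cells are pale, with a median range of 0.52; Chd3, Sirt5, Hdac1, Hdac7 and Hdac9 hold the strongest colours.

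Genes whose products share complexes with these enzymes were examined from 4 lists of 113 genes, of which 108 were tested. The strain effect was called for 49, or 45.4%, against 74.2% of all genes tested: 13 of 35 acetyltransferase complex partners, 11 of 26 deacetylase complex partners, 9 of 19 SWI/SNF partners and 16 of 28 partners of the other remodelers. Their median strain range was 0.59 in log2 units, against 1.16 for all genes tested. The partners were not set against genes of their own level. The 2 partners with the smallest p in each list were Brpf3 and Yeats4, Mta3 and Tbl1xr1, Bcl7c and Ss18, and Cecr2 and Ino80c. Bcl7c, an accessory SWI/SNF subunit, stood out with 27 ± 5.62 CPM in NOD/ShiLtJ and 1.81 ± 0.524 CPM in WSB/EiJ (n = 3 each, SD; adjusted p in edgeR 8.25e-11). Brpf3, a scaffold of Kat7 and Kat6 complexes, had its lowest mean in PWK/PhJ, 8.65 ± 1.7 CPM, and its highest in 129S1/SvImJ, 22.2 ± 3.26 CPM, while Mta3, a NuRD subunit, ran between 4.87 ± 0.291 CPM in WSB/EiJ and 9.84 ± 1.44 CPM in 129S1/SvImJ (n = 3 each, SD; adjusted p in edgeR 1e-05 and 0.000251). Cecr2, a partner of ISWI ATPases, ran between 8.46 ± 0.893 CPM in NZO/HlLtJ and 22.4 ± 3.43 CPM in CAST/EiJ (n = 3 each, SD; adjusted p in edgeR 4.27e-06). The strain ranges of Yeats4, Tbl1xr1, Ss18 and Ino80c were 1.09, 0.99, 0.54 and 1.14 in log2 units.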

How the data were processed

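RNA was sequenced from 27 hepatocyte libraries, 3 for each of 9 strains. The authors deposited estimated counts (expected counts) per gene, not scaled to depth, in 1 table. FastQC 0.11.5, DESeq2 and the builds GRCm38 and mm10 are named, without a role, in the submitters' processing notes. The aligner, the counter and whether reads of each strain were aligned to its own genome are not given in the sources used here, and this can change counts in divergent strains. Per the labels' protocols, the polyA library kit does not mark strand; 17 of the 44 genes overlap a gene on the opposite strand. In 4 of the 44 (Kat5, Hdac1, Smarcb1 and Chd2) the estimated counts were not whole in any library, and in 26 they were whole in all.

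The counts were rounded and fitted in R 4.3.3 with edgeR 4.0.16: filterByExpr with strain as group, TMM factors (0.722 to 1.226), 1 quasi-likelihood model of strain on all 27 libraries, an F test of any strain difference, and 9 contrasts of a strain with the mean of the other 8. P-values were adjusted by Benjamini and Hochberg over 14482 genes and called under 0.05. The fit was tested on simulated data. Standard errors were derived from the F statistic. Levels per kilobase used the longest GENCODE M21 transcript. Counts carry PCR duplicates, so floors cover counting error only.

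The members and lists were chosen with earlier results of these data known. Named in the text are all members by symbol, per-library values of the 8 with the smallest p, strain means of called members, ranges of the others (for some as their lowest and highest strain mean), called contrasts with the largest first, and the 2 partners with the smallest p of each list. Library values of Kat2a, Hdac9 and Hdac11 fall outside this rule and were added after their values were seen. Alternatives were DESeq2 1.42.0, median-of-ratios size factors, other filters on low counts, the replicate number as a factor, marker list means as covariates, a GC trend removed, no rounding, other prior counts and level windows, and leaving out each library.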

Additional observations from a re-analysis of the deposited data

How the results depend on the processing

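The 23 genes called among the strains were 29 with DESeq2 (79% of all genes tested in the same fit), 14 without a filter on low counts (46.4%), 21 of the 43 tested with a mean of at least 10 counts (76.2%) and 21 with the marker covariates (67.4%), and 17 to 25 when 1 library was left out (69.7% to 75.6%). Size factors, GC and rounding left the number at 23 (74.2% to 75.8%). The calls of 15 genes held in every fit that left out 1 library. No direction reversed.

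For single strains, the counts without the filter were 3 in C57BL/6J, 1 in DBA/2J, 1 in NOD/ShiLtJ, 4 in WSB/EiJ and 5 in PWK/PhJ. With the marker covariates they were 3 in C57BL/6J, 1 in 129S1/SvImJ, 4 in A/J, 4 in NOD/ShiLtJ and 5 in NZO/HlLtJ, and with the GC trend removed 1 in DBA/2J. Leaving out 1 library gave 2 to 7 in C57BL/6J, 1 to 6 in 129S1/SvImJ, 2 to 10 in A/J, 1 to 3 in DBA/2J, 1 to 4 in NOD/ShiLtJ, 3 to 9 in NZO/HlLtJ, 2 to 8 in WSB/EiJ, 6 to 11 in CAST/EiJ and 4 to 11 in PWK/PhJ, and 40 to 60 partner genes. The cause was not tested.

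Replicate numbers did not pair the libraries: 76 pairs with the same number had deviations correlated at a mean r of 0.01, and 7 of 26 libraries correlated best with their own number. With the number as a replicate block, 16 of the 44 genes were called among the strains, against 64.6% of all genes; Kat2a (0.0991), Kat6a (0.115), Hdac2 (0.0571), Hdac10 (0.188), Sirt2 (0.1), Brd3 (0.107) and Smarcc2 (0.0925) lost the call. By strain the counts were 3 in 129S1/SvImJ, 1 in DBA/2J, 3 in WSB/EiJ and 5 in CAST/EiJ. Depth limits Hdac9, with at most 27 counts in a library.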
